A study of Mus musculus with 4 samples.

Results

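XX gonads without Wnt4 were set against XX wild-type gonads on 2 arrays of a series of 4. Both arrays that the labels assign to this comparison were taken, and the other 2 set XY wild-type gonads against XX wild-type gonads. The tested RNA came from XX embryos labelled Wnt4 -/-, with the allele and the strain not stated. The RNA it was set against came from XX embryos labelled wild type (Wnt4 +/+). All were collected at 12 days post coitum, when testis and ovary begin to differ in the mouse. Per the labels, gonads were freed of the mesonephros, those of over 100 embryos were gathered per genotype, and they were combined into several pools for isolation of total RNA. On replicate 1 the Wnt4 null RNA carried Cy5 and the wild-type RNA Cy3, and on replicate 2 the dyes were exchanged. Whether the pair carried separate RNA extracts is not stated, so every SD of a gene below is the spread between 2 arrays and may be technical. Fits of all 4 arrays take their error from the XY arrays as well.

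Each value is the authors' log2 ratio of the dyes at a spot, centred here on its array's median, and a value above 0 is read as more RNA in Wnt4 null gonads. Values were present for 14131 spots on replicate 1 and 14533 on replicate 2, and for 13738 on both. Of these, 11642 were named probes of 10821 genes, and 1200 of the named probes were blank on an XY array. A ratio carries no level, so the presence of gonad markers in either RNA could not be checked. The direction is likely, not settled. The labels name no numerator, replicate 1 and the XY array of the same dye orientation correlated at r = -0.61 over 12524 spots as deposited, and the arrays of the Wnt4 null pair correlated at r = -0.52. The basis for reading both arrays as Wnt4 null over wild type is that the series' design calls XX wild type the reference sample. That basis did not hold for XY replicate 1, which was turned because of Xist and a probe of Eif2s3y. The XY pair thus reads as Cy3 over Cy5 on both arrays. A second probe of Eif2s3y had 0.64 and -0.45 in XY gonads after the turn, so its signs differ. The second arrays of the pairs correlated at r = 0.65 over 13592 spots. Every gene name rests on a numbering in which rows and columns of each printed block change places between the values and the platform annotation.

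Wnt4 encodes a secreted Wnt ligand made by somatic cells of the XX gonad. Wnt ligands bind Frizzled receptors, and in the canonical branch the signal lets beta-catenin enter the nucleus and act with TCF and LEF factors on target genes. R-spondins, which bind Lgr receptors, strengthen that signal. In the fetal ovary Wnt4 and Rspo1 support the fate of the supporting cells, and XX gonads of mice without Wnt4 are known to contain cells that make steroids. The series title places the study's question in the growth of vessels in the testis.

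Most probes did not repeat between the dye orientations, and a small set did. Of 11642 named probes, 15.6% were above 0 on both arrays, 15.5% below 0 on both and 68.8% of opposite sign. At 1.5-fold or more on each array, 68 named probes were higher (0.584%) and 62 lower (0.533%), while 947 passed the same size in opposite directions. Past 4-fold, 1 was higher, 3 were lower and 8 opposed each other. The standard deviation across the 13738 spots was 0.424 for the difference between the arrays divided by 2 and 0.240 for their sum divided by 2. Probes just inside the 1.5-fold limit were Krt20 (-0.82 and -0.59) and Gstm1 (0.67 and 0.59), and just outside it lay Ahnak (-0.85 and -0.58) and Tbccd1 (-0.81 and -0.58).

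Limma fitted to both arrays called 0 of 13738 spots (0%) at an adjusted p under 0.05, with 178 at an unadjusted p under 0.05. An exact sign test over 2 arrays cannot go below p = 0.5, so it could not pass either. A limma fit of all 4 arrays with a dye term, XY replicate 1 turned, called 24 of 12264 spots (0.196%), 16 higher (0.130%) and 8 lower (0.0652%), of which 19 are named probes. Without the dye term it called 0, with 354 at an unadjusted p under 0.05. The fit of 4 arrays with the dye term leaves few residual degrees of freedom. On simulated ratios it called more false spots than the 0.05 threshold allows. Calls with the dye term are named as such below. They number 0 with XY replicate 1 left as deposited and 150 with the printed blocks centred one by one.

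**Figure D1:**
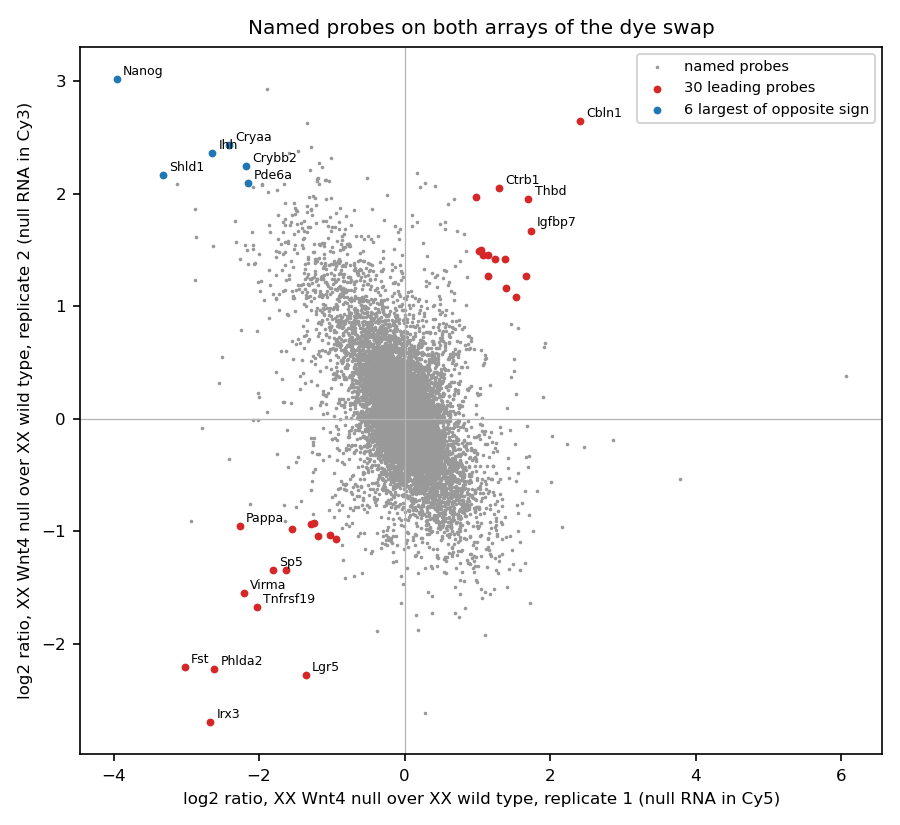
Log2 ratio of each named probe on replicate 1 (x axis, Wnt4 null RNA in Cy5) and replicate 2 (y axis, Wnt4 null RNA in Cy3), with the array median at 0. The 30 leading probes (red) lie in the lower left and upper right, apart from a cloud that slopes downward, and the 6 probes of largest opposite sign (blue) all lie at the upper left.

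Genes listed here for the XX supporting lineage were among the lowest in Wnt4 null gonads. Among the 15 lowest probes were Irx3, an Iroquois homeobox gene, Fst, the gene of follistatin, which binds activin, and Kitl, which encodes the Kit ligand that germ cells need. In bulk RNA, fewer cells of a type and less RNA per cell cannot be told apart. Irx3 had log2 ratios of -2.67 and -2.70 on replicates 1 and 2, a mean of -2.68 ± 0.02 (SD, n = 2) or 6.42-fold lower. Fst had -3.02 and -2.21, a mean of -2.61 ± 0.58 (SD, n = 2). These were the lowest values of the list on replicate 1, and on replicate 2 only Lgr5, at -2.28, lay between them. In the fit with the dye term Irx3 and Fst did not pass (limma adjusted p = 0.0711 and 0.0937). That fit takes its error from the XY arrays as well, where Irx3 had -3.58 and -2.07 and Fst -2.49 and -3.40.

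Gata2, a zinc finger transcription factor gene, had -1.62 and -1.35, and it was called lower with the dye term (limma adjusted p = 0.0462). Kitl had -1.19 and -1.05, and Msx2, a homeobox gene, had -1.66 and -0.77. Kitl did not pass (limma adjusted p = 0.0615 with the dye term). The supporting cell list had 19 measured members, of which 10 were below 0 on both arrays and 1 above. Past 1.5-fold lower were 7 of them, against 0.536% of all 10821 genes. This list and the others were chosen with earlier results of these data known, so their shares are no independent support. The median log2 ratio of the list was -0.33, with -0.65 on replicate 1 and -0.45 on replicate 2, against 0.01 over all genes. Below 0 on both arrays were 15.1% of all genes, above 0 on both 15.4%, and 69.5% were of opposite sign. With the dye term 3 of 17 tested genes, Lgr5, Sp5 and Gata2, were called lower and 0 higher, against 0.0652% of spots lower. Bulk RNA does not show which cells made the RNA of any member, Gata2 included.

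The list was not low throughout. Rspo1, the R-spondin gene of the fetal ovary, had -0.65 and 0.86, Runx1, a transcription factor gene of early supporting cells, had -1.19 and 1.19, and Msx1 had -1.76 and 0.42. For these 3 genes replicate 1 lay below 0 and replicate 2 above it. Lhx9, a homeobox gene of the early gonad, was the only member above 0 on both arrays, at 0.24 and 0.35. Nr0b1, an X-linked nuclear receptor gene also called Dax1, had -0.61 and -0.25.

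Among Wnt target genes, 3 were called lower and the other members varied in sign and size. Tnfrsf19, a receptor gene of the tumour necrosis factor family, had -2.03 and -1.67 (mean -1.85 ± 0.25, SD, n = 2). Lgr5, a receptor gene for R-spondins, had -1.36 and -2.28 (mean -1.82 ± 0.65), and Sp5, a transcription factor gene, had -1.81 and -1.35 (mean -1.58 ± 0.33). All 3 were called lower with the dye term (limma adjusted p = 0.0462 each). They make up the 3 calls among 12 tested genes of the target list, with 0 higher, against 0.0652% of spots called lower and 0.130% higher, and Lgr5 and Sp5 are also on the supporting cell list. Over its 16 measured genes the median was -0.10, with -0.21 on replicate 1 and -0.15 on replicate 2. Of the 16, 5 were below 0 on both arrays, 2 above and 9 of opposite sign. Ccn4, another target gene, lay on the other side at 0.64 and 1.13, and Cd44, an adhesion receptor gene, had -0.44 and -0.41. Nkd1, an inhibitor gene induced by the pathway, was at -0.17 and -0.08, and Ccnd1 (0.03 and -0.48) and Myc (-0.96 and 1.70) differed in sign between the arrays.

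The stretch before the start of Sp5 and of Tnfrsf19 is shown because both target genes were low and both hold the letters ATCAAAG or their reverse complement CTTTGAT, the best known recognition sequence of TCF and LEF factors, printed in capitals. Cxcl12, among the highest genes, holds them too. These are the bases that end at the annotated start, from RefSeq in build GRCm38.p6, 5′ to 3′ on the gene's strand. Sp5 lies on the plus strand at chr2:70474673-70474922, Tnfrsf19 (one of its annotated starts) on the minus strand at chr14:61037988-61038237, and Cxcl12 on the plus strand at chr6:117168285-117168534.
Sp5: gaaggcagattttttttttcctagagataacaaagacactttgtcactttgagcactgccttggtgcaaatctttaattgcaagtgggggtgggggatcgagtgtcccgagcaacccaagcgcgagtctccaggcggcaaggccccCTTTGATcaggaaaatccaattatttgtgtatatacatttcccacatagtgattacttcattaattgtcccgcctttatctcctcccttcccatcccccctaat
Tnfrsf19: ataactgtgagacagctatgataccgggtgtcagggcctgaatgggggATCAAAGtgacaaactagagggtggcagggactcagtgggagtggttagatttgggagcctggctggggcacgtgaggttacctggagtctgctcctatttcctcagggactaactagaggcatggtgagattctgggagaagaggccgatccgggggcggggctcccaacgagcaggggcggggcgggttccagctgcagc
Cxcl12: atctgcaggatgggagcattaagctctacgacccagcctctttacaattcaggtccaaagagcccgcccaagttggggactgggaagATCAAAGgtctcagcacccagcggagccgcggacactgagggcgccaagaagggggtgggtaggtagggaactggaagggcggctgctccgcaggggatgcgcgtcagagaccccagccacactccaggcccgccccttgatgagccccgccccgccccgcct

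Both strands were searched. The letters begin 104 bases before the start of Sp5, 202 before that of Tnfrsf19 and 163 before that of Cxcl12. Among the 15 lowest genes, 10 were in the promoter table and 2 held the letters, among the 15 highest 11 were in it and 1 held them, and 3.21% of all 32851 promoter stretches of this length did. A match is a description of the letters and says nothing about binding.

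Other parts of the Wnt pathway showed few repeated differences. Of 53 measured pathway genes 10 were above 0 and 5 below 0 on both arrays, and the median was 0.04. Wnt4 itself had -0.08 and -0.18, a mean of -0.13 ± 0.07 (SD, n = 2). In XY gonads it had -1.08 and -1.73. The position of the probe against the deletion is unknown, and the value is no check of the genotype. Among ligands, Wnt6 had -0.93 and -0.26. Porcn, which encodes the enzyme that adds a lipid to Wnt ligands, had -0.28 and -0.45. Fzd5, a receptor gene, had 0.92 and 0.69, and Sfrp2, which encodes a secreted Frizzled-related antagonist, had 0.35 and 0.77. Lgr5 was the only pathway member called with the dye term among 45 tested, against 0.0652% of spots called lower and 0.130% higher. On both arrays 1 gene each was past 1.5-fold higher and lower, against 0.573% and 0.536% of all genes.

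The 4 Id genes, singled out from the activin, BMP and TGF-beta list after their values were seen, were below 0 on both arrays, as were 15.1% of all genes. They encode inhibitors of helix-loop-helix factors and are induced by BMP signals. Id1 had -0.92 and -0.63, Id4 -0.38 and -0.62, Id3 -0.12 and -0.78, and Id2 -0.07 and -0.35. None of the 4 was called with the dye term, and Id3 also lies 17 genes from Wnt4. Among the 42 measured genes of the activin, BMP and TGF-beta list, Id1 and Fst were past 1.5-fold lower on both arrays and 0 genes were past it higher. The median of that list was 0.12, with -0.13 on replicate 1 and 0.18 on replicate 2. Inhba, the activin subunit gene whose product follistatin binds, was at 0.24 and 0.19.

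**Figure D2:**
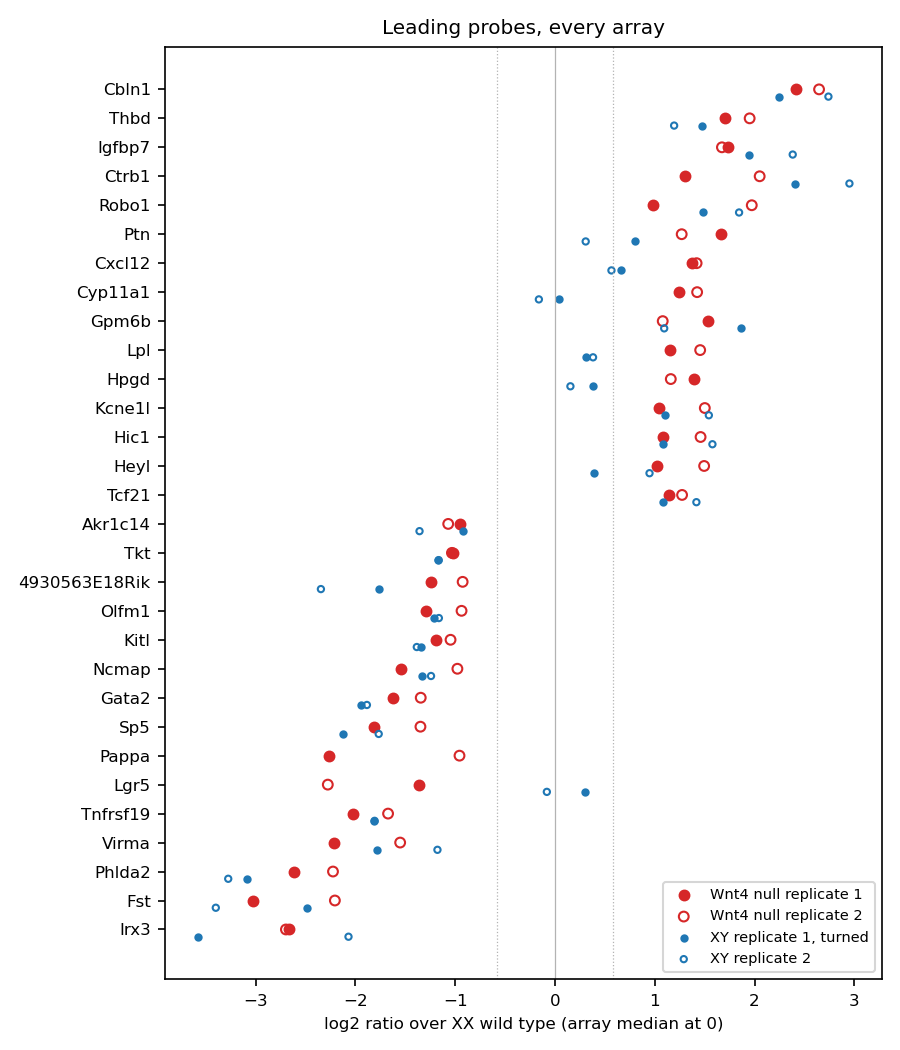
Log2 ratio over XX wild type of the 30 leading probes on each array (x axis), with Wnt4 null arrays in red and XY arrays in blue; dotted lines mark 1.5-fold, and Pappa has no XY value. Cyp11a1 lies at 1.25 and 1.42 in Wnt4 null gonads and Lgr5 at -1.36 and -2.28, while the XY points of both genes lie near 0; Cbln1 and Tnfrsf19 have XY points close to their Wnt4 null points.

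Cbln1 was the highest named probe by the smaller of its ratios. Cbln1, a secreted protein gene of the cerebellin family, had 2.41 and 2.65, a mean of 2.53 ± 0.16 (SD, n = 2) or 5.78-fold higher. It was called higher with the dye term (limma adjusted p = 0.0384). Thbd, which encodes thrombomodulin of the endothelial surface, had 1.70 and 1.95, and Igfbp7, a matrix-bound growth factor binding protein gene, had 1.74 and 1.67. Cxcl12, a chemokine gene, had 1.38 and 1.42, Ptn, which encodes the growth factor pleiotrophin, 1.67 and 1.27, and Ctrb1, a chymotrypsinogen gene, 1.30 and 2.05. Thbd, Igfbp7, Cxcl12, Ptn and Ctrb1 were each called higher with the dye term (limma adjusted p = 0.0462 each). Of the 15 highest probes 10 were called with the dye term (0.130% of spots were called higher). Of the 15 lowest, 14 could be tested, since Pappa has no XY value, and 6 were called (0.0652% of spots were called lower). Both sets of 15 were picked by their values on arrays that the fit also uses, so these shares are no independent support.

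Cyp11a1, Lpl and Hpgd were among the 15 highest probes. The steroid list held 0 calls with the dye term among 9 tested genes. Over all spots 0.130% were called higher and 0.0652% lower, so 0 calls among so few genes tell little. Cyp11a1, whose enzyme cleaves the side chain of cholesterol as the opening step to steroids, had 1.25 and 1.42, a mean of 1.33 ± 0.13 (SD, n = 2). Lpl, which encodes lipoprotein lipase, had 1.15 and 1.46, and Hpgd, which encodes the dehydrogenase that inactivates prostaglandins, had 1.40 and 1.16. Hpgd was called higher with the dye term (limma adjusted p = 0.0462), and Cyp11a1 and Lpl were not (0.0585 and 0.0520). Among 10 measured genes of the steroid and adrenal list, 4 were above 0 on both arrays and 0 below, and only Cyp11a1 was past 1.5-fold. Mc2r, the corticotropin receptor gene, had 0.77 and 0.46, and Cyp11b2, an aldosterone synthesis gene, had 0.43 and 0.23. Cyp17a1, needed for androgens, had -1.66 and 2.09, and Cyp21a1, an adrenal enzyme gene, had 0.49 and -0.17, so neither repeated. The list median was 0.19, with 0.02 on replicate 1 and 0.29 on replicate 2. On the cholesterol synthesis list 5 of 15 genes were below 0 on both arrays and 1 above, with Srebf1, a regulator gene of lipid synthesis, at -0.23 and -0.54.

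Matrix and mesenchyme genes lay mostly above 0, with the higher values on replicate 2. Of 45 measured genes 26 were above 0 on both arrays and 1 below, against 15.4% and 15.1% of all genes, and 4 were past 1.5-fold higher, against 0.573% of all genes. The median was 0.32, with 0.14 on replicate 1 and 0.62 on replicate 2. Tcf21, a transcription factor gene of mesenchyme, had 1.15 and 1.27, and Hic1, a zinc finger repressor gene, had 1.08 and 1.46. Sparc, a matrix glycoprotein gene, had 0.84 and 1.02, and the collagen genes Col3a1 and Col4a1 had 0.74 and 0.58, and 0.52 and 0.86. Igfbp7 and Hic1 were the 2 members called higher with the dye term, of 44 tested, against 0.130% of spots. Igfbp4 was the member below 0 on both arrays, at -0.15 and -0.14. Several matrix genes opposed each other between arrays, such as Col6a2 (-0.61 and 1.47) and Hspg2 (-0.70 and 1.39).

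Hedgehog signalling, which runs from Sertoli cells to the interstitium of the testis, had 3 of 12 measured genes above 0 and 3 below on both arrays. Gli1, its effector and target, had 0.49 and 0.65. Gas1, a coreceptor gene, had 0.60 and 0.26. Dhh, the Sertoli ligand gene, was at 0.16 and -0.05.

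Vessel genes were above 0 on both arrays more often than below. Past 1.5-fold were 2 of 25 measured endothelial genes higher and 0 lower, against 0.573% and 0.536% of all genes. Thbd led the endothelial list, followed by Ets1, a transcription factor gene, at 0.73 and 0.69, Icam2, an adhesion gene, at 0.45 and 0.32, and Sox7 at 0.30 and 0.56. Of 25 measured endothelial genes 8 were above 0 and 4 below on both arrays, against 15.4% and 15.1% of all genes, and the median was 0.12, with 0.00 on replicate 1 and 0.29 on replicate 2. Widely used endothelial markers differed among themselves: Ramp2, a receptor accessory gene, had 0.57 and 0.28, Cldn5, a tight junction gene, 0.13 and 0.40, Cdh5, the endothelial cadherin gene, had 0.21 and -0.07, Pecam1 -0.18 and 0.39, and Kdr, the main receptor gene for vascular endothelial growth factor, -0.11 and -0.28. Among 34 vessel signal genes 11 were above 0 and 4 below on both arrays. Their median was 0.13, with -0.08 on replicate 1 and 0.26 on replicate 2. Of the 34, 2 were past 1.5-fold higher, Cxcl12 and Robo1, and 1 lower, Sema3a. Robo1, a guidance receptor gene, had 0.98 and 1.97, while Sema3a, which encodes a repulsive guidance signal, had -0.90 and -0.74. Heyl, a Notch target gene of vessel walls, was at 1.02 and 1.49 and was called higher with the dye term (limma adjusted p = 0.0462). Of 11 mural cell genes, 2 were above 0 on both arrays and 0 below, with a median of 0.21, which was -0.15 on replicate 1 and 0.66 on replicate 2.

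Macrophage genes were above 0 on both arrays in 11 of 22 cases and below in 0, against 15.4% and 15.1% of all genes. Fcer1g, a signalling chain of Fc receptors, had 0.43 and 0.58, Pf4, a chemokine gene, 0.38 and 0.58, and Tyrobp, a signalling adaptor gene, 0.45 and 0.29. None was past 1.5-fold on both arrays. The median was 0.28, with 0.12 on replicate 1 and 0.58 on replicate 2. Neural and skeletal muscle lists likewise had medians of 0.40 and 0.47 on replicate 2, and their part in the macrophage value was not tested. Ptprc, the gene of the pan-leukocyte surface protein CD45, was near 0 at 0.03 and 0.03, and Adgre1, the F4/80 gene, had 0.17 and -0.11. The markers C1qa, C1qb and C1qc lie beside Wnt4 on the chromosome. Without them the median was 0.19, with 0.12 on replicate 1 and 0.45 on replicate 2.

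**Figure D3:**
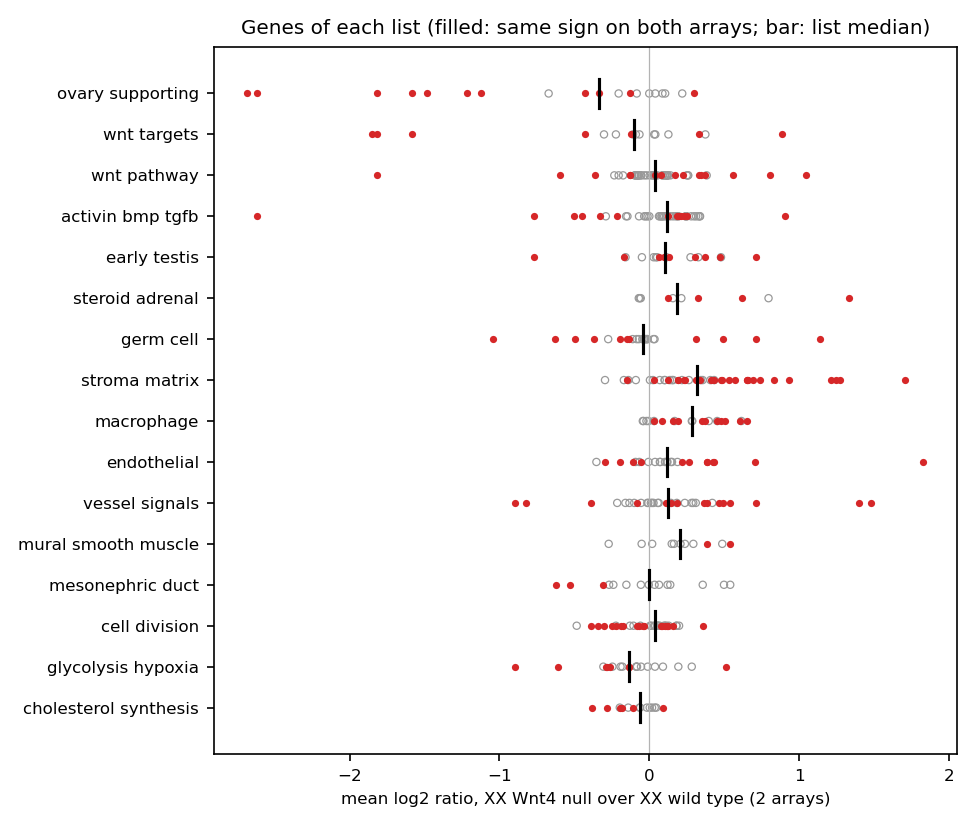
Mean log2 ratio of each measured gene over both arrays (x axis) in 16 gene lists; filled points had the same sign on both arrays, open points did not, and bars mark list medians. The supporting cell list has its median at -0.33 and the matrix list at 0.32, while the cell division list is centred near 0.

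Neighbours of Wnt4 were examined because a null allele carries its own stretch of chromosome. Among the 20 protein-coding genes on each side in the order of the RefSeq table, 25 were measured, 5 above 0 on both arrays, 4 below and 16 of opposite sign, with a median of -0.03. The C1q genes, which encode chains of a complement protein, lie 3 to 5 genes away on one side. C1qb had 0.47 and 0.84, C1qc 0.25 and 0.66, and C1qa -0.12 and 1.35. Cela3b, a pancreatic elastase gene and the third gene on the other side, had 0.86 and 1.26 (mean 1.06 ± 0.28, SD, n = 2) and was the neighbour past 1.5-fold higher. Tcea3, a transcription elongation factor gene 14 genes away, averaged -0.85 ± 0.22 (SD, n = 2) and was the neighbour past 1.5-fold lower. The nearest measured neighbour, Cdc42, which encodes a small GTPase, had 0.19 and 0.01. Whether linkage to the allele plays a part in these values was not tested.

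**Figure D4:**
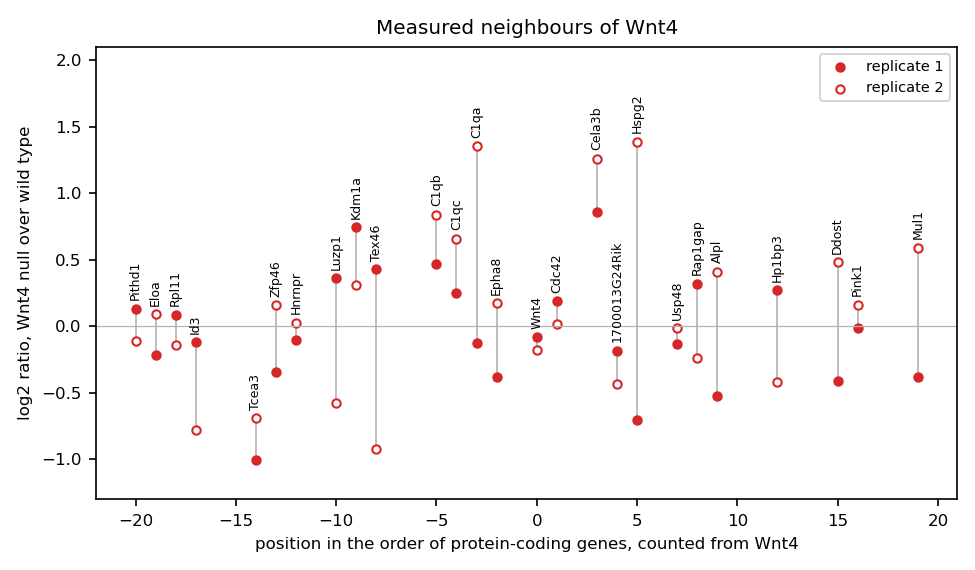
Log2 ratio on replicate 1 (filled) and replicate 2 (open) of the 25 measured neighbours of Wnt4 and of Wnt4 (y axis) by place in the order of protein-coding genes (x axis). Cela3b lies at 0.86 and 1.26 and Tcea3 averages -0.85; 16 of the neighbours have points on opposite sides of 0.

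On the testis and germ cell lists, 0 or 1 gene each was past 1.5-fold in either direction on both arrays. Over all genes 0.573% were past it higher and 0.536% lower. Among early testis genes, 18 of which were measured, 7 were above 0 and 2 below on both arrays, against 15.4% and 15.1% of all genes, with 0 past 1.5-fold higher and 1 lower and a median of 0.11. Ptgds, the prostaglandin D synthase gene, had 0.57 and 0.85, and Mmd2, a gene of fetal Sertoli cells, had 0.78 and 0.16. Fgfr2, which encodes a receptor for fibroblast growth factors, had -0.74 and -0.79. Sox9, the Sertoli transcription factor gene, had 0.27 and -0.21, and Amh 0.23 and -0.33. Among 24 germ cell genes 4 were above 0 and 7 below on both arrays, with 1 past 1.5-fold on each side. Stra8, needed for entry into meiosis, had -0.70 and -1.39, and Lin28a, an RNA-binding protein gene of pluripotent cells, -0.68 and -0.58. Dppa5a, a gene of pluripotent and germ cells, lay on the other side at 0.65 and 0.77, as did Nodal, a TGF-beta family ligand gene, at 0.54 and 0.45. Pou5f1, which marks germ cells of both sexes, was near 0 at -0.10 and 0.15.

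Further genes among the leading probes belong to none of the lists above, though Phlda2 is on the imprinted list counted below. Phlda2, an imprinted growth-restraining gene of the placenta, had -2.61 and -2.22 and was called lower with the dye term (limma adjusted p = 0.0462). Another imprinted growth restrainer, Cdkn1c, had -1.29 and -0.64. Tkt, which encodes transketolase of the pentose phosphate pathway, had -1.02 and -1.03, and Akr1c14, which encodes a hydroxysteroid dehydrogenase, had -0.95 and -1.07. Virma, a subunit gene of the RNA methylation complex, had -2.21 and -1.55, Ncmap, a myelin protein gene, -1.55 and -0.98, and Olfm1, which encodes a secreted olfactomedin, -1.29 and -0.94. Gpm6b, a membrane glycoprotein gene, had 1.54 and 1.08, but its second probe had 1.34 and -0.71. Kcne1l, a potassium channel subunit gene, averaged 1.27 ± 0.32 (SD, n = 2).

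Probes blank on an XY array numbered 1200, and 7 of them were past 1.5-fold higher and 11 lower on both Wnt4 null arrays. Of all 11642 named probes, 68 were past it higher (0.584%) and 62 lower (0.533%). Pappa, a protease gene that frees insulin-like growth factors, had -2.27 and -0.96, while its second probe had 0.41 and -0.32. Clcf1, a cytokine gene, had -0.86 and -0.97, and Gm13629 had -2.93 and -0.91. The probe of 4933406K04Rik had -0.91 and -0.81. Pibf1 had -1.64 and -0.91 on this probe, but its other probes had -0.03 and 0.24, and 0.35 and -0.31. On the high side were Hao2, a peroxisomal hydroxy acid oxidase gene, at 0.88 and 0.74, Npas3, a transcription factor gene, at 0.65 and 0.95 (0.01 and -0.20 on its second probe), Defb5, a defensin gene, at 0.65 and 0.81, and Map7d2 at 0.88 and 0.62 (-0.13 and 0.28, and -0.39 and -0.30 on its other probes). Ets1 was also among the 5 highest. Of the 10 genes at either end, 5 had further probes (Pappa, Pibf1, 4933406K04Rik, Npas3 and Map7d2), and none of these passed 1.5-fold in 1 direction on both arrays.

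Values in the XY pair are given beside those of the Wnt4 null pair for a few genes chosen after their values were seen. Both comparisons share XX wild type as their reference, and XY replicate 1 was turned. Some leading genes had values close to those of the XY pair. Cbln1 had 2.41 and 2.65 in Wnt4 null gonads and 2.25 and 2.74 in XY gonads, and Tnfrsf19 had -2.03 and -1.67 in Wnt4 null gonads and -1.81 and -1.81 in XY gonads. Tcf21 had 1.15 and 1.27 in Wnt4 null gonads and 1.08 and 1.42 in XY gonads, and Fst had -3.02 and -2.21 in Wnt4 null gonads and -2.49 and -3.40 in XY gonads. For others the values lay further apart. Lgr5 had -1.36 and -2.28 in Wnt4 null gonads and 0.30 and -0.08 in XY gonads, a difference of -1.92 (limma adjusted p = 0.209 with the dye term). Cyp11a1 had 1.25 and 1.42 in Wnt4 null gonads and 0.05 and -0.16 in XY gonads, a difference of 1.39 (limma adjusted p = 0.253). Hpgd had 1.40 and 1.16 in Wnt4 null gonads and 0.38 and 0.15 in XY gonads, and Ptgds had 0.57 and 0.85 in Wnt4 null gonads and 2.53 and 3.34 in XY gonads. Of 12264 spots 0 (0%) were called for the difference by limma, both when dye was a term (1098 at an unadjusted p under 0.05) and when it was not (197).

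Genes of the sex chromosomes gave a mixed check of the labels, since both RNAs are labelled XX. Eif2s3y, a Y-linked translation factor gene, had 1.53 and 0.22 on a probe that had 2.22 and 2.26 in XY gonads. Its second probe had 0.70 and -1.33, and in XY gonads 0.64 and -0.45. Kdm5d and Zfy2, also Y-linked, had -0.21 and 0.05, and 0.26 and 0.01. Xist, the transcript of the inactive X, had -0.48 and 0.49. Both probes of Eif2s3y were thus above 0 on replicate 1, and they differed in sign on replicate 2.

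The reading of the ratios decides these results. With replicate 1 alone turned, as if both arrays were Cy3 over Cy5 like the XY pair, 0 of the 30 leading probes had the same sign on both arrays, Irx3 averaged -0.01 and Cbln1 0.12, and the leading probes would be those of opposite sign here. Of the 6 largest such probes, Nanog, a pluripotency gene, had -3.95 and 3.02, Ihh, a Hedgehog ligand gene, -2.64 and 2.37, and Shld1 -3.32 and 2.17. All 6 were low on replicate 1 and high on replicate 2. On the XY arrays, with replicate 1 turned, Nanog had -2.75 and 3.44. With both arrays turned, each ratio keeps its size and changes sign, so that Irx3 and Fst would be highest and Cbln1 lowest.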

How the data were processed

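Per the labels, total RNA of pooled fetal gonads was compared on 2-colour spotted oligonucleotide arrays, Wnt4 null against wild type on 2 of 4. The authors deposited a log2 ratio per spot; base 2 was inferred from the lowest value of an XY column (-6.64), and their normalization was not given in sources used here. Column medians as deposited were 0.00840 and -0.0388 for Wnt4 null replicates 1 and 2, so they were centred near 0 by an unknown method; scale and direction are also not stated. No spot intensities were used, so dim spots could not be filtered and the number of arrays limits precision.

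Arrays were centred on their medians. Of 17664 spots, 14010 had 1 symbol in the platform annotation, 13 several and 3641 none; 13908 matched a RefSeq table (GRCm38.p6, used for names and gene order) by Entrez identifier and 0 symbols were altered. Between 2 probes of a gene, mean ratios correlated at rho = 0.0788 over 598 genes in the exchanged numbering and -0.0186 over 558 in the deposited numbering. The tests were limma 3.58.1 in R 4.3.3 (lmFit, eBayes, two-sided, Benjamini-Hochberg), on the pair and on all 4 arrays, where XY replicate 1 was turned because of Eif2s3y and Xist; a fit of all 4 uses only spots with 4 values. XX wild type is the reference on each array, so its own spread is left out.

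Named genes are the 15 highest and 15 lowest probes ranked by the smaller absolute ratio among those of the same sign on both arrays, the 5 highest and 5 lowest blank on an XY array, up to 4 leading members of each gene list, the 6 largest of opposite sign, neighbours of Wnt4 and sex chromosome genes. Members named to show disagreement within a list, and the XY values set beside them, were picked after their values were seen. The comparison and the lists were chosen with earlier results of these data known. Probes of a gene were averaged for lists. Alternatives changed centring, scale, direction, numbering, spots and arrays.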

Additional observations from a re-analysis of the deposited data

How the results depend on the processing

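No paired analysis was possible because the replicate numbers used here follow the order of deposit and the labels give none; the dye term sets arrays of the same dye orientation together. The 0 calls of the pair became 24 with 4 arrays and a dye term, and, in settings chosen after seeing the data, 150 with that fit and printed blocks centred and 0 with XY replicate 1 or Wnt4 null replicate 1 in the other direction; calls stayed at 0 without replicate 1 or 2 in a fit of the remaining 3 arrays, where the lone array is assumed to vary like the XY pair. The 76 spots past 1.5-fold higher and 74 lower on both arrays became 16 and 12 at 2-fold, and 682 and 405 with replicate 1 turned alone. Single arrays had 1059 to 1769 spots higher and 1231 to 1239 lower. The supporting cell median of -0.33 was 0.0885 with replicate 1 turned alone, 0.33 with both turned, 0.0738 with names in the deposited order, and -0.63 to -0.35 with an array left out, the lowest without replicate 2. The steroid and adrenal median of 0.19 was -0.19 with both turned, -0.21 with names in the deposited order, and -0.13 without replicate 2 to 0.35 without replicate 1, where spots blank on the array left out also enter. With both turned the matrix and macrophage medians were -0.32 and -0.28, and the macrophage median was 0.12 without replicate 2 and 0.62 without replicate 1. The cause was not tested. All 30 leading probes kept their sign and 1.5-fold on both arrays as deposited, with printed blocks centred and with arrays scaled to a common spread. They were picked for large ratios on both arrays, with cuts of 1.98-fold higher and 1.90-fold lower, so this is no independent support.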

Other observations

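The median of all genes was 0.01. Ribosomal protein genes had a median of -0.03 over 57 genes, with 5 above 0 and 10 below on both arrays, and respiratory chain genes 0.00 over 63 genes, with 9 and 7. Proteasome genes had a median of -0.01 over 38 genes, of which Psmb2 alone was past 1.5-fold, at 0.69 and 0.62. Histone genes had a median of 0.07 over 16 genes. The 38 cell division genes were centred at 0.03 by their median, and 7 were above 0 and 11 below on both arrays, with the replication licensing genes Mcm2 at -0.26 and -0.35 and Mcm5 at -0.52 and -0.25, and Birc5, which encodes survivin, at 0.32 and 0.39. Glycolysis and hypoxia genes had a median of -0.13, with 7 of 21 below 0 on both arrays and 1 above, against 15.1% and 15.4% of all genes. Among them Tpi1, a glycolytic enzyme gene, had -0.26 and -0.32, Adm, the adrenomedullin gene, -1.46 and -0.34, and Egln3, an oxygen sensor gene, 0.64 and 0.39.

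Lists for other tissues and functions were counted beside all genes, of which 15.4% were above 0 and 15.1% below on both arrays. Red blood cell genes had 2 of 14 above 0 and 1 below on both arrays, with a median of 0.08. Neural genes had 2 of 14 above and 1 below, and skeletal muscle genes 1 of 13 above and 0 below, although replicate medians were -0.36 and 0.40 for neural and -0.24 and 0.47 for muscle genes. Interferon genes had 1 of 13 above and 0 below. Mesonephric duct genes had 0 of 15 above and 3 below, among them Calb1, a calcium-binding protein gene, at -0.65 and -0.60, and Krt18, a keratin gene, at -0.57 and -0.49. Of 5 surface epithelium genes 2 were above 0 on both arrays, with Cpe, which encodes carboxypeptidase E, at 0.48 and 1.07. Of 14 retinoic acid genes 3 were above and 3 below, with the binding protein gene Crabp2 at -0.21 and -0.44 and the reductase gene Dhrs3 at 0.28 and 0.52. Of 24 stress and handling genes 7 were above and 2 below. Nupr1, a stress-induced nuclear protein gene, had 0.68 and 1.95, and Asns, asparagine synthetase, had -0.76 and -0.95. Of 19 imprinted genes 7 were above 0 and 2 below on both arrays.

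The highest mean of any named probe was that of Micalcl, chosen after its values were seen, at 6.06 on replicate 1 and 0.38 on replicate 2, and it was blank on both XY arrays. Casp12, likewise chosen, had 3.79 and -0.53.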
